A study of Homo sapiens with 6 samples.

Results

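YAP and its paralog TAZ are transcriptional coactivators at the end of the Hippo pathway. The kinases MST1 and MST2 activate the kinases LATS1 and LATS2, which phosphorylate YAP and TAZ and hold them out of the nucleus. In the nucleus the coactivators bind TEAD transcription factors and switch on genes of the extracellular matrix, adhesion and growth, some of which restrain the pathway in turn. In MDA-MB-231, which derives from a triple-negative breast tumour and carries a loss of the upstream regulator NF2, the coactivators are known to be highly active. The genes described here are the 10 that the files list under the symbols YAP1, WWTR1 (which encodes TAZ), TEAD1, TEAD4, LATS1, LATS2, CYR61, CTGF, ANKRD1 and AMOTL2, out of 17452 listed. They were chosen by symbol for their roles, with earlier results of these data known, and all 10 passed the filter on low values.

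The study asks which transcripts depend on PHF20L1, a nuclear reader of methylated lysines. RNA was sequenced from 3 libraries of cells transfected with an siRNA against PHF20L1 (siPHF20L1) and 3 libraries of cells transfected with a control siRNA (siControl). All cells were grown in L-15 medium with serum, and the labels name Lipofectamine 2000 or RNAiMAX as the reagent without saying which served which sample. When the cells were harvested and which siRNA sequences were used was not given in the sources used here. Separate cultures are not stated either, so the p-values measure only the spread between these libraries. Values are FPKM as deposited, fragment counts scaled by transcript length and by mapped depth. Each log2 difference is siPHF20L1 minus siControl, taken after adding 1 to the FPKM.

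The PHF20L1 transcript (Entrez 51105) stood at 2.67, 2.31 and 2.74 FPKM in siPHF20L1 libraries, against 15.75, 12.48 and 12.73 FPKM in siControl libraries, so every library followed its label. The libraries were alike in depth, estimated from steps in the low values at 17100000 to 17500000 fragments. The 5 mesenchymal markers of the line summed to 1510 FPKM in each siPHF20L1 library and to 2340 to 2360 FPKM in siControl libraries, with VIM at 1010 to 1024 FPKM in siPHF20L1 and 1613 to 1644 FPKM in siControl libraries. VIM makes up most of that sum and the list did not move as one, since VIM, AXL and ZEB1 fell, FN1 rose (65.8 ± 1.42 FPKM in siPHF20L1 and 49.1 ± 1.38 FPKM in siControl libraries, limma, adjusted p = 0.000189) and CD44 did not pass. The 5 epithelial and hormone receptor markers, of which ESR1 was listed at 0 in all 6 libraries, summed to 35.2 to 36.0 FPKM in siPHF20L1 and 28.3 to 28.6 FPKM in siControl libraries, mostly through ERBB2. ERBB2 rose by a log2 difference of 0.24 (limma, adjusted p = 0.00444). EPCAM stood at 4.31 ± 0.796 FPKM in siPHF20L1 and 2.2 ± 0.161 FPKM in siControl libraries (log2 difference 0.72, limma, adjusted p = 0.00067). CDH1 and PGR were below the filter. The part of either marker list in the results was not tested. Markers of blood cells and of endothelium summed to at most 2.17 FPKM and 0.5 FPKM in any library. In bulk RNA, fewer cells of a kind and less RNA per cell cannot be told apart.

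Among the 10 genes the coactivators and TEAD factors differed by -0.10 to 0.13 on the log2 scale and did not pass the threshold, the LATS kinases moved in opposite directions, and the targets divided. LATS2 was higher in siPHF20L1 libraries (limma, adjusted p under 0.05), and LATS1, CTGF, ANKRD1 and AMOTL2 were lower. These are 5 of 10, against 58.6% of the 11560 genes tested, so the share of the set that passed was no larger than that of genes at large. By direction, 1 of 10 was higher, against 34% of all genes tested, and 4 of 10 were lower, against 24.7%. Without siPHF20L1 replicate 1, 3 of 10 were higher, with TEAD4 and CYR61 added, against 3952 of the 11560 genes tested. The median log2 difference was -0.08 over the 10 genes and 0.05 over all genes tested. The balance over all genes depends on the scaling, with 3371 higher and 3478 lower (median -0.01) under quantile normalization, and 3504 higher and 3307 lower (median 0.0) under median-ratio size factors, against 3926 higher and 2851 lower as deposited. Non-overlapping FPKM set the groups apart in 7 of the 10 genes, against 63.7% of all genes tested, with LATS2 and CYR61 higher (36.7% of all genes) and WWTR1, LATS1, CTGF, ANKRD1 and AMOTL2 lower (27% of all genes).

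**Figure D1:**
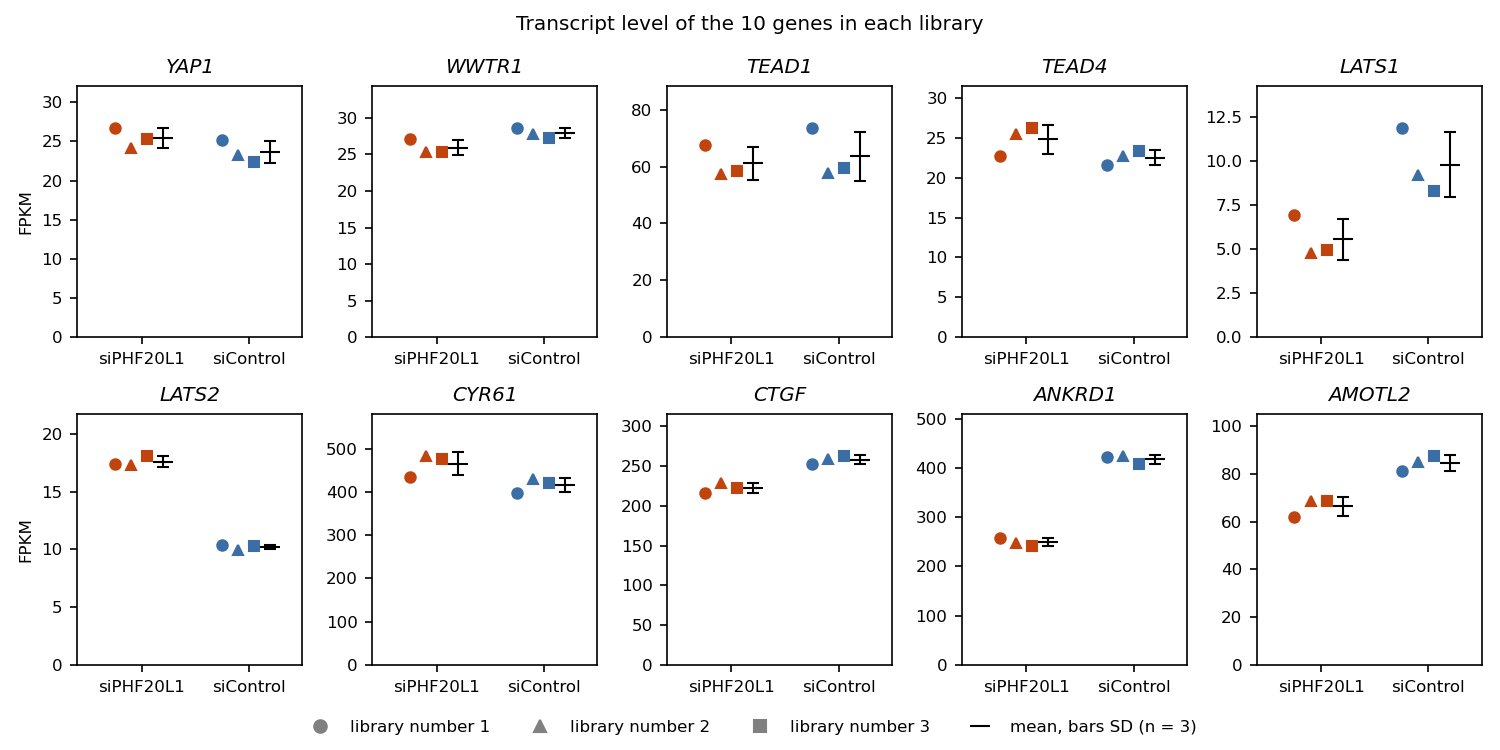
Level of each of the 10 genes in FPKM on linear axes that start at 0, with the 3 siPHF20L1 libraries left and the 3 siControl libraries right in each panel, marker shapes giving the library number and black bars the mean and SD (n = 3). LATS2 lies above its controls and LATS1 and ANKRD1 below theirs with clear gaps, while YAP1, TEAD1 and TEAD4 overlap.

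Of the 10 genes, 7 were found in the RefSeq promoter table (build GRCh38.p14, which is not the GRCh37 of the submitters' processing notes). The table gives 250 bases before and 50 after the start of each gene. TEAD factors are known to bind the word GGAATG, which was searched on both strands. It occurred in 11.3% of the 13897 promoters of genes in the files, and in 4 of the 7 found here, those of CTGF, ANKRD1, LATS2 and YAP1. Several of the genes were chosen as known targets of YAP and TEAD, so a higher share here is no independent result. CTGF and ANKRD1, which fell, and LATS2, which rose, are shown because these 3 targets of YAP and TEAD differ in direction. The capitals mark each match.
CTGF, chr6:131951323-131951622, minus strand: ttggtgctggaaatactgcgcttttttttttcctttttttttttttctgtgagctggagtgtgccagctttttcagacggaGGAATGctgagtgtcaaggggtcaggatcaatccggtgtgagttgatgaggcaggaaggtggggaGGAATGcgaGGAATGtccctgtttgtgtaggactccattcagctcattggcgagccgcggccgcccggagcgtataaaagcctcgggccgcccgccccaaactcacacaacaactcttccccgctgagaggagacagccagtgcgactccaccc
ANKRD1, chr10:90921038-90921337, minus strand: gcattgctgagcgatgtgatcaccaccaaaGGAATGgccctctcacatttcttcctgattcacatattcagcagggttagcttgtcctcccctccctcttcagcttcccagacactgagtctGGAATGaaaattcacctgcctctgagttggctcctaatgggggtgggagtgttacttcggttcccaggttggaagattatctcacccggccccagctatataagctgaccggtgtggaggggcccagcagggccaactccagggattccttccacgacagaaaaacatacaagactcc
LATS2, chr13:21061537-21061836, minus strand: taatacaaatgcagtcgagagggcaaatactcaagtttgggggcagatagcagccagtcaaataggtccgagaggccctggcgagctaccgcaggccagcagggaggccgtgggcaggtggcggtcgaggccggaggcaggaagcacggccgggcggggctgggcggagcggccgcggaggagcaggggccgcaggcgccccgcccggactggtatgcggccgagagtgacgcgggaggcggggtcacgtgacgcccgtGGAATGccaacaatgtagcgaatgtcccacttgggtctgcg
The CTGF window held 3 matches, whose first bases lie 169, 104 and 95 bases before the start. ANKRD1 held matches 220 and 128 bases before it, and LATS2 held 1 match that begins at base 10 of the transcript. YAP1 held 1 match, 162 bases before its start. A match describes the letters of the window and is not evidence of binding.

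YAP1 (Entrez 10413) stood at 26.73, 24.17 and 25.37 FPKM in siPHF20L1 libraries, against 25.14, 23.29 and 22.39 FPKM in siControl libraries. The groups overlapped, and the log2 difference of 0.10 (SE 0.0664, 95% interval -0.05 to 0.25) did not pass (limma, adjusted p = 0.21). WWTR1 (Entrez 25937) lay at 27.14, 25.31 and 25.33 FPKM in siPHF20L1 and at 28.63, 27.82 and 27.28 FPKM in siControl libraries. Every siPHF20L1 library was below every siControl library, by a small margin, and the log2 difference of -0.10 (SE 0.0566, 95% interval -0.23 to 0.03) did not pass (limma, adjusted p = 0.149). Both passed once the replicate number entered as a block, YAP1 as higher (limma, adjusted p = 0.0327) and WWTR1 as lower (limma, adjusted p = 0.0216). The other alternatives in which WWTR1 passed were quantile normalization (limma, adjusted p = 0.0421), median-ratio size factors (0.0367) and a fit to libraries 2 and 3 of each group (0.0259), and over all 14 alternatives its adjusted p ranged from 0.0216 to 0.441.

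The sum of both coactivators was 51.4 ± 2.27 FPKM in siPHF20L1 and 51.5 ± 2.08 FPKM in siControl libraries (SD, n = 3 each; exact permutation test, two-sided, p = 0.8). Within that sum YAP1 made up 49.5% ± 0.604 in siPHF20L1 libraries, against 45.8% ± 0.862 in siControl libraries (SD, n = 3 each), and the shares did not overlap. The within-library log2 ratio of YAP1 to WWTR1 was -0.03 ± 0.0349 in siPHF20L1 and -0.24 ± 0.0501 in siControl libraries, a difference of 0.21 (SD, n = 3 each; exact permutation test, two-sided, p = 0.1, and 0.133 adjusted over the 4 ratios tested). With 3 libraries against 3 this test cannot give less than 0.1.

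TEAD1 and TEAD4 encode DNA-binding partners of the coactivators. TEAD1 (Entrez 7003) lay at 67.71, 57.28 and 58.37 FPKM in siPHF20L1 and at 73.64, 57.62 and 59.63 FPKM in siControl libraries. The library numbered 1 was the highest of its group in both, and the groups overlapped. The log2 difference was -0.05 (SE 0.10, 95% interval -0.29 to 0.18; limma, adjusted p = 0.68), and without siControl replicate 1 it was 0.06. TEAD4 (Entrez 7004) lay at 22.74, 25.48 and 26.24 FPKM in siPHF20L1 and at 21.53, 22.7 and 23.3 FPKM in siControl libraries. Here the library numbered 1 was the lowest of its group in both. The log2 difference of 0.13 (SE 0.0695, 95% interval -0.03 to 0.29) did not pass (limma, adjusted p = 0.13). It passed with the replicate block (limma, adjusted p = 0.0084), in libraries 2 and 3 of each group (0.0076) and when siPHF20L1 replicate 1 was left out (0.0274). Its adjusted p lay between 0.0076 and 0.431 in the 14 alternatives.

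The paralogs outside the 10 genes moved. TEAD2 was at 22.6 ± 0.869 FPKM in siPHF20L1 and 17.3 ± 1.02 FPKM in siControl libraries (log2 difference 0.37, limma, adjusted p = 0.00136), and TEAD3 at 35.8 ± 0.721 FPKM in siPHF20L1 and 31.1 ± 0.61 FPKM in siControl libraries (log2 difference 0.20, limma, adjusted p = 0.0102, and 0.0978 with libraries 2 and 3 averaged). All TEAD genes together summed to 144 ± 4.19 FPKM in siPHF20L1 and 135 ± 6.69 FPKM in siControl libraries (exact permutation test, two-sided, p = 0.2). TEAD1 took 40.2% to 45.4% of that sum in siPHF20L1 and 44.6% to 51.8% in siControl libraries, and was the most abundant per length in every library. VGLL4, which encodes a protein known to compete with YAP for TEAD, rose to 17.2 ± 0.316 FPKM in siPHF20L1 libraries, against 10.1 ± 0.312 FPKM in siControl libraries (log2 difference 0.72, limma, adjusted p = 1.85e-05). Of the 8 tested genes among coactivators, TEAD factors and VGLL proteins, TEAD2, TEAD3 and VGLL4 rose, none fell, and 5 did not pass, 37.5% called against 58.6% of all genes tested (34% higher and 24.7% lower). With the replicate block 5 rose and 1 fell, 75.0% called, where 76.1% of all genes were called (42.8% higher and 33.3% lower). Counted in either direction, neither share exceeded that of all genes. All calls of the fit to all libraries were rises, and that 37.5% is close to the 34% of all genes that rose. With the block the 5 of 8 that rose compare with 42.8% of all genes. The median log2 difference of these 8 genes was 0.12.

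LATS1 and LATS2 encode the kinases that phosphorylate YAP and TAZ, and LATS2 is also a known target of YAP. LATS1 (Entrez 9113) fell to 6.91, 4.79 and 4.95 FPKM in siPHF20L1 libraries, against 11.88, 9.2 and 8.32 FPKM in siControl libraries. The groups did not overlap, and the library numbered 1 was the highest of both. This came to -0.72 on the log2 scale (SE 0.15, limma, adjusted p = 0.00325), with a mean 1.77-fold lower. LATS2 (Entrez 26524) rose to 17.41, 17.26 and 18.11 FPKM in siPHF20L1 libraries, against 10.34, 9.96 and 10.27 FPKM in siControl libraries. The spread within each group was small beside the gap, and the rise was 0.73 on the log2 scale (SE 0.0583, limma, adjusted p = 1.56e-05), with a mean 1.73-fold higher. Both genes passed in all 14 alternatives, in the same direction.

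LATS2 lay above LATS1 in every siPHF20L1 library, while in siControl libraries their ranges overlapped. LATS1 made up 28.4%, 21.7% and 21.5% of the summed LATS FPKM in siPHF20L1 libraries, against 53.5%, 48.0% and 44.8% in siControl libraries. The within-library log2 ratio of LATS1 to LATS2 was -1.68 ± 0.305 in siPHF20L1 and -0.07 ± 0.255 in siControl libraries (SD, n = 3 each; difference -1.61; exact permutation test, two-sided, p = 0.1). That is the smallest p the design allows, 0.133 adjusted over the 4 ratios. Libraries numbered 1 differed by -1.53 and libraries numbered 2 and 3 by -1.65. The sum of both was 23.1 ± 1.14 FPKM in siPHF20L1 and 20.0 ± 1.95 FPKM in siControl libraries (exact permutation test, two-sided, p = 0.2).

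The longest annotated 3′ UTR of LATS1 (GENCODE release 29) holds the word TAAGGA at 3 places. TAAGGA and CAAGAT are words that an earlier look at these same libraries picked because genes carrying them in the 3′ UTR were often lower, so their presence is no independent evidence. The sites are shown because LATS1 is the only one of the 5 genes past the threshold that carries either word, with the word in capitals.
LATS1, base 209 of the 3′ UTR: aaaattgttaTAAGGAaagtaaatta
LATS1, base 542 of the 3′ UTR: atcctgaaacTAAGGAatacagggtt
LATS1, base 1129 of the 3′ UTR: gcttaggttcTAAGGAagattaaggt
At least 1 of the words stands in 5 of the 10 genes, against 54.2% of the 11485 tested genes with a 3′ UTR. The other carriers are YAP1, WWTR1, TEAD1 and TEAD4, none of which passed, with 1 to 5 sites each. LATS2, CYR61, CTGF, ANKRD1 and AMOTL2 carry neither word, and 4 of these 5 passed, in both directions. The part of these words in the fall of LATS1 was not tested.

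CYR61 and CTGF, also called CCN1 and CCN2, encode secreted matrix proteins and are the most used readouts of YAP and TEAD. CYR61 (Entrez 3491) lay at 435.85, 484.39 and 477.19 FPKM in siPHF20L1 libraries, against 397.23, 429.45 and 420.9 FPKM in siControl libraries. Every siPHF20L1 library was above every siControl library. The log2 difference was 0.16 (SE 0.0654, 95% interval 0.01 to 0.31), and over all genes it did not pass (limma, adjusted p = 0.06). CYR61 passed as higher in 5 of the 14 alternatives, which were the replicate block (limma, adjusted p = 0.00171), equal sums (0.0163), quantile normalization (0.00189), libraries 2 and 3 of each group (0.0016) and the fit without siPHF20L1 replicate 1 (0.0212), and its adjusted p ranged from 0.0016 to 0.278.

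CTGF (Entrez 1490) fell to 216.06, 228.55 and 222.1 FPKM in siPHF20L1 libraries, against 252.38, 258.57 and 263.19 FPKM in siControl libraries. The groups did not overlap, and the fall was small, with a log2 difference of -0.21 (SE 0.0528, 95% interval -0.34 to -0.09, limma, adjusted p = 0.00755) and a ratio of means of 1.16-fold. It did not pass with the libraries numbered 2 and 3 averaged to 1 (limma, adjusted p = 0.0995, the highest of the 14 alternatives, whose lowest was 0.000163). CYR61 stood at 2.02, 2.12 and 2.15 times the FPKM of CTGF in siPHF20L1 libraries, against 1.57, 1.66 and 1.6 times in siControl libraries. The log2 ratio was 1.07 ± 0.0479 in siPHF20L1 and 0.69 ± 0.0398 in siControl libraries (SD, n = 3 each; difference 0.38; exact permutation test, two-sided, p = 0.1, and 0.133 adjusted over the 4 ratios). The fourth ratio, TEAD1 to TEAD4, was 1.3 ± 0.239 on the log2 scale in siPHF20L1 and 1.49 ± 0.245 in siControl libraries (difference -0.19; exact permutation test, two-sided, p = 0.5). It was -0.33 without siPHF20L1 replicate 1 and -0.05 without siControl replicate 1.

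NOV, the next CCN family gene by level, rose to 16.1 ± 0.457 FPKM in siPHF20L1 libraries, against 8.83 ± 0.507 FPKM in siControl libraries (log2 difference 0.80, limma, adjusted p = 1.85e-05). WISP2 was low in both groups, at 0.92 ± 0.156 FPKM in siPHF20L1 and 1.33 ± 0.0709 FPKM in siControl libraries (log2 difference -0.28, limma, adjusted p = 0.021), and passed in 11 of 14 alternatives. WISP1 and WISP3 were below the filter. Of the 4 CCN genes tested, NOV rose, CTGF and WISP2 fell and CYR61 did not pass, while 34% of all genes tested rose and 24.7% fell. The block brought the count of higher genes to 2 by adding CYR61, as did leaving out siPHF20L1 replicate 1, while leaving out siPHF20L1 replicate 3 or siControl replicate 2 left 1 lower. CYR61, CTGF and NOV together summed to 704 ± 32.0 FPKM in siPHF20L1 and 683 ± 21.6 FPKM in siControl libraries (exact permutation test, two-sided, p = 0.4).

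ANKRD1 encodes a nuclear and sarcomeric ankyrin repeat protein, and AMOTL2 an angiomotin that binds YAP and holds it in the cytoplasm, so it is both a target and an inhibitor. ANKRD1 (Entrez 27063) fell to 257.79, 247.73 and 241.77 FPKM in siPHF20L1 libraries, against 421.55, 425.14 and 407.91 FPKM in siControl libraries. The gap was many times the spread within the groups, with a log2 difference of -0.75 (SE 0.0548, 95% interval -0.87 to -0.62, limma, adjusted p = 1.03e-05) and a mean 1.68-fold lower, a change of about the size of those of LATS1 and LATS2, whose order in size depends on the pseudocount and the scaling. AMOTL2 (Entrez 51421) fell to 61.87, 68.78 and 68.66 FPKM in siPHF20L1 libraries, against 81.07, 85.15 and 87.64 FPKM in siControl libraries. Its groups did not overlap, and they differed by -0.35 on the log2 scale (SE 0.0624, limma, adjusted p = 0.0015). Both genes passed in all 14 alternatives.

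**Figure D2:**
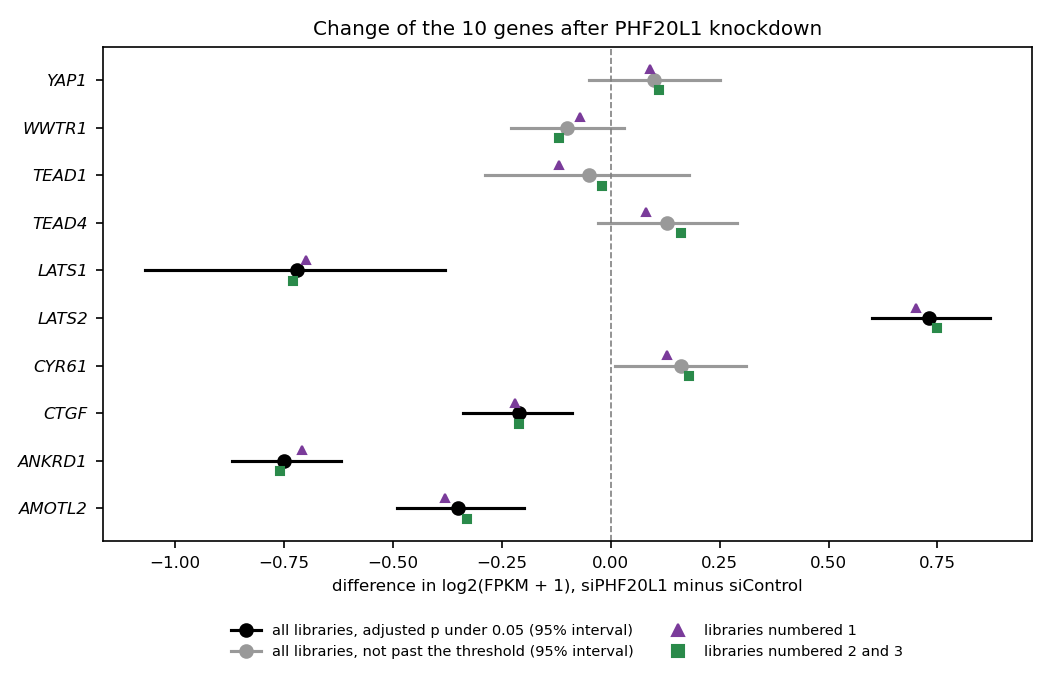
Difference in log2(FPKM + 1), siPHF20L1 minus siControl, for the 10 genes, with circles and lines giving the fit to all 6 libraries and its 95% interval (black where the adjusted p is under 0.05), triangles the difference between the libraries numbered 1 and squares that between the libraries numbered 2 and 3. The LATS1 and LATS2 estimates lie at -0.72 and 0.73, and triangles and squares fall on the same side of 0 for every gene.

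Ordered by level per length, CYR61 led the 10 genes in siPHF20L1 libraries with 466 ± 26.2 FPKM, followed by ANKRD1 with 249 ± 8.10 FPKM and CTGF with 222 ± 6.25 FPKM (SD, n = 3), and these 3 did not overlap. In siControl libraries ANKRD1 (418 ± 9.09 FPKM) and CYR61 (416 ± 16.7 FPKM) overlapped at the top and CTGF followed with 258 ± 5.42 FPKM. AMOTL2 and TEAD1 came next in both groups, with overlapping ranges in siPHF20L1 libraries. WWTR1, YAP1 and TEAD4 followed in that order and could not be ranked among themselves in siPHF20L1 libraries, while in siControl libraries WWTR1 was above YAP1. LATS2 and LATS1 were lowest in both.

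Each of the 10 genes had the same direction in libraries numbered 1 (1 against 1, no test) as in libraries numbered 2 and 3. LATS1 differed by -0.70 and -0.73 in those comparisons, LATS2 by 0.70 and 0.75, ANKRD1 by -0.71 and -0.76, and AMOTL2 by -0.38 and -0.33. CTGF differed by -0.22 and -0.21 and CYR61 by 0.13 and 0.18. With the replicate block 9 of the 10 genes passed, against 76.1% of all genes with the block. Of these, 4 were higher, against 42.8% of all genes, and 5 lower, against 33.3%. TEAD1 did not pass (limma, adjusted p = 0.185).

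A published signature of 22 YAP and TEAD targets, 5 of them among the 10 genes, went both ways. Of the 22, 6 rose, 10 fell and 6 did not pass, while 34% of all genes tested rose and 24.7% fell. Without the 5 shared genes 5 rose, 7 fell and 5 did not pass, 70.6% called against 58.6% of all genes tested. In the fit to all libraries, both counts had a share that fell above that of all genes and a share that rose below it. The lower share of rises did not hold in every alternative. Of the 22, 10 rose with the replicate block, against 42.8% of all genes, and 8 with equal sums, against 3983 of 11560 genes. It held with median-ratio size factors, where 6 rose, against 3504 of 11560 genes. Outside the 10 genes the largest rises were those of RBMS3, an RNA-binding protein gene, CCDC80, a secreted matrix protein gene, and TGFB2, a ligand of the TGF-beta receptors. RBMS3 stood at 8.98 ± 1.68 FPKM in siPHF20L1 and 2.34 ± 0.217 FPKM in siControl libraries (log2 difference 1.57, limma, adjusted p = 1.28e-05). CCDC80 stood at 18.8 ± 0.853 FPKM in siPHF20L1 and 6.26 ± 0.0862 FPKM in siControl libraries (log2 difference 1.44), and TGFB2 at 36.3 ± 2.01 FPKM in siPHF20L1 and 22.9 ± 1.80 FPKM in siControl libraries (0.64).

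AXL, a receptor tyrosine kinase that is also one of the mesenchymal markers above, fell most, to 255 ± 5.25 FPKM in siPHF20L1 libraries, against 499 ± 9.23 FPKM in siControl libraries (log2 difference -0.97, limma, adjusted p = 2.46e-06). ASAP1, which activates the GTPase function of ARF proteins, stood at 27.7 ± 3.72 FPKM in siPHF20L1 and 45.3 ± 4.78 FPKM in siControl libraries (log2 difference -0.69, limma, adjusted p = 0.000571). CRIM1, a transmembrane protein that binds growth factors, stood at 96.4 ± 2.62 FPKM in siPHF20L1 and 150 ± 7.96 FPKM in siControl libraries (-0.63, limma, adjusted p = 3.33e-05). The median log2 difference of the 22 genes was -0.09, against 0.05 over all genes tested, and 72.7% of them passed, against 58.6% of all genes. With the replicate block 10 rose and 11 fell, 95.5% against 76.1% of all genes with the block (42.8% higher and 33.3% lower).

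**Figure D3:**
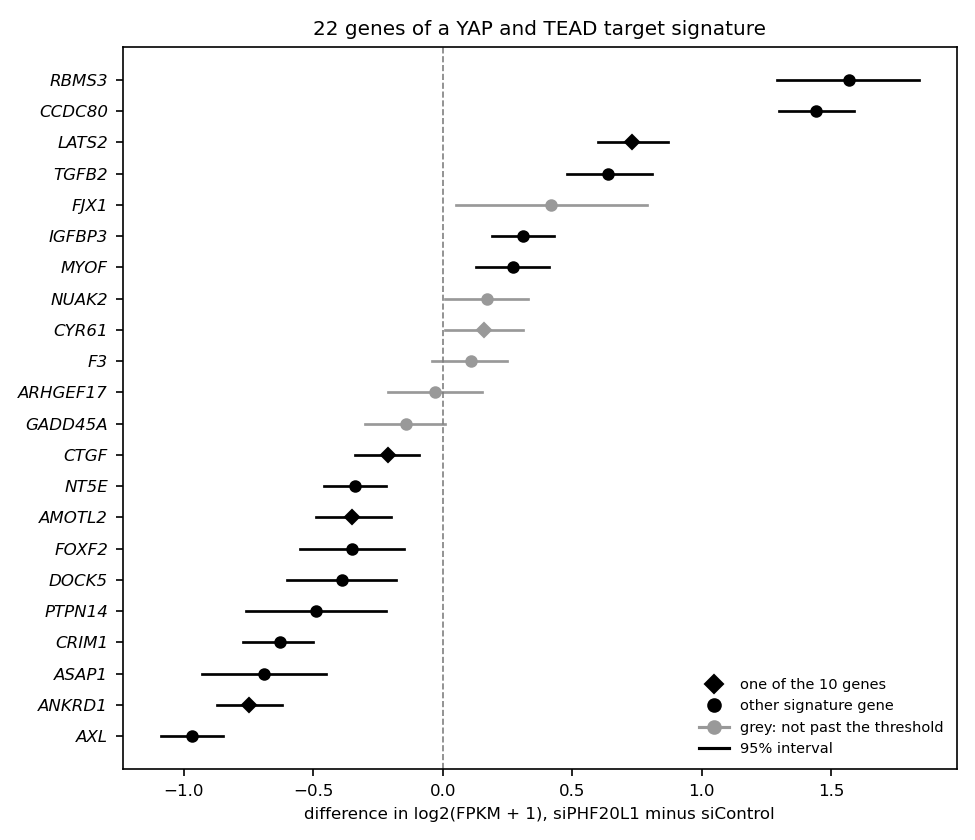
Difference in log2(FPKM + 1), siPHF20L1 minus siControl, for the 22 signature genes sorted by size, with the 95% interval of the fit as lines, diamonds for genes among the 10 and circles for the others, grey where the threshold was not passed. The genes run from AXL at -0.97 to RBMS3 at 1.57, with ANKRD1 at -0.75 and LATS2 at 0.73.

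Upstream of the coactivators, the kinase module that holds LATS1 and LATS2 had 18 tested genes, of which 7 rose and 6 fell. This is 72.2%, against 58.6% of all genes tested (34% higher and 24.7% lower), with a median log2 difference of -0.02. MAP4K4, a kinase known to phosphorylate LATS kinases in parallel to MST1 and MST2, rose to 59.8 ± 4.66 FPKM in siPHF20L1 libraries, against 23.1 ± 0.413 FPKM in siControl libraries (log2 difference 1.34, limma, adjusted p = 1.46e-06). Its relative MAP4K5 fell to 10.4 ± 0.986 FPKM in siPHF20L1 libraries, against 24.7 ± 1.3 FPKM in siControl libraries (-1.17, limma, adjusted p = 6.34e-06). MINK1, of the same family, rose by a log2 difference of 0.67 and STK38, a kinase related to LATS, by 0.57. MAP4K1 to MAP4K5, MINK1 and TNIK together summed to 173 ± 5.74 FPKM in siPHF20L1 and 125 ± 1.25 FPKM in siControl libraries. These sums did not overlap (exact permutation test, two-sided, p = 0.1, the smallest this test can give). MOB1A and MOB1B, the adaptors that LATS kinases need, both fell, MOB1A to 37.9 ± 4.85 FPKM in siPHF20L1 libraries, against 58.4 ± 7.90 FPKM in siControl libraries, and MOB1B to 4 ± 0.566 FPKM in siPHF20L1 libraries, against 7.2 ± 1.3 FPKM in siControl libraries (limma, adjusted p = 0.00167 and 0.00136).

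Among 18 tested upstream regulators and scaffolds 4 rose and 8 fell, 66.7% against 58.6% of all genes tested (34% higher and 24.7% lower), with a median log2 difference of -0.10, and 5 fell without siControl replicate 3. NF2 itself lay at 5.23 ± 0.761 FPKM in siPHF20L1 and 6.47 ± 0.551 FPKM in siControl libraries and did not pass (log2 difference -0.27, limma, adjusted p = 0.0511), except with the block (0.00299) and in other alternatives, 6 of 14 in all. WWC1, also called KIBRA, which activates LATS kinases, rose to 16 ± 0.354 FPKM in siPHF20L1 libraries, against 8.16 ± 0.361 FPKM in siControl libraries (log2 difference 0.89, limma, adjusted p = 8.03e-06). WWC2 fell to 4.12 ± 0.105 FPKM in siPHF20L1 libraries, against 11.7 ± 0.530 FPKM in siControl libraries (-1.31, limma, adjusted p = 1.75e-06). The summed FPKM of WWC1, WWC2 and WWC3 was 51.9 ± 1.13 in siPHF20L1 and 51.7 ± 1.59 in siControl libraries (exact permutation test, two-sided, p = 0.8).

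AMOTL1, the angiomotin paralog of AMOTL2, rose to 23.1 ± 1.43 FPKM in siPHF20L1 libraries, against 9.07 ± 0.818 FPKM in siControl libraries (log2 difference 1.26, limma, adjusted p = 4.67e-06). The angiomotin sum was 93.6 ± 2.65 FPKM in siPHF20L1 and 97.6 ± 2.26 FPKM in siControl libraries (exact permutation test, two-sided, p = 0.2), and AMOTL2 made up 68.3% to 72.7% of it in siPHF20L1 and 85.1% to 87.8% in siControl libraries. LIMD1, a LIM protein that binds LATS kinases, fell to 10.9 ± 0.376 FPKM in siPHF20L1 libraries, against 23.7 ± 0.946 FPKM in siControl libraries (-1.05, limma, adjusted p = 3.09e-06). PTPN14, a phosphatase that binds YAP and is itself in the target signature, fell by 0.49 on the log2 scale, and SCRIB, a polarity scaffold, rose by 0.46 (limma, adjusted p = 0.0115, and 0.0569 with libraries 2 and 3 averaged, the only 1 of 14 alternatives in which it did not pass).

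**Figure D4:**
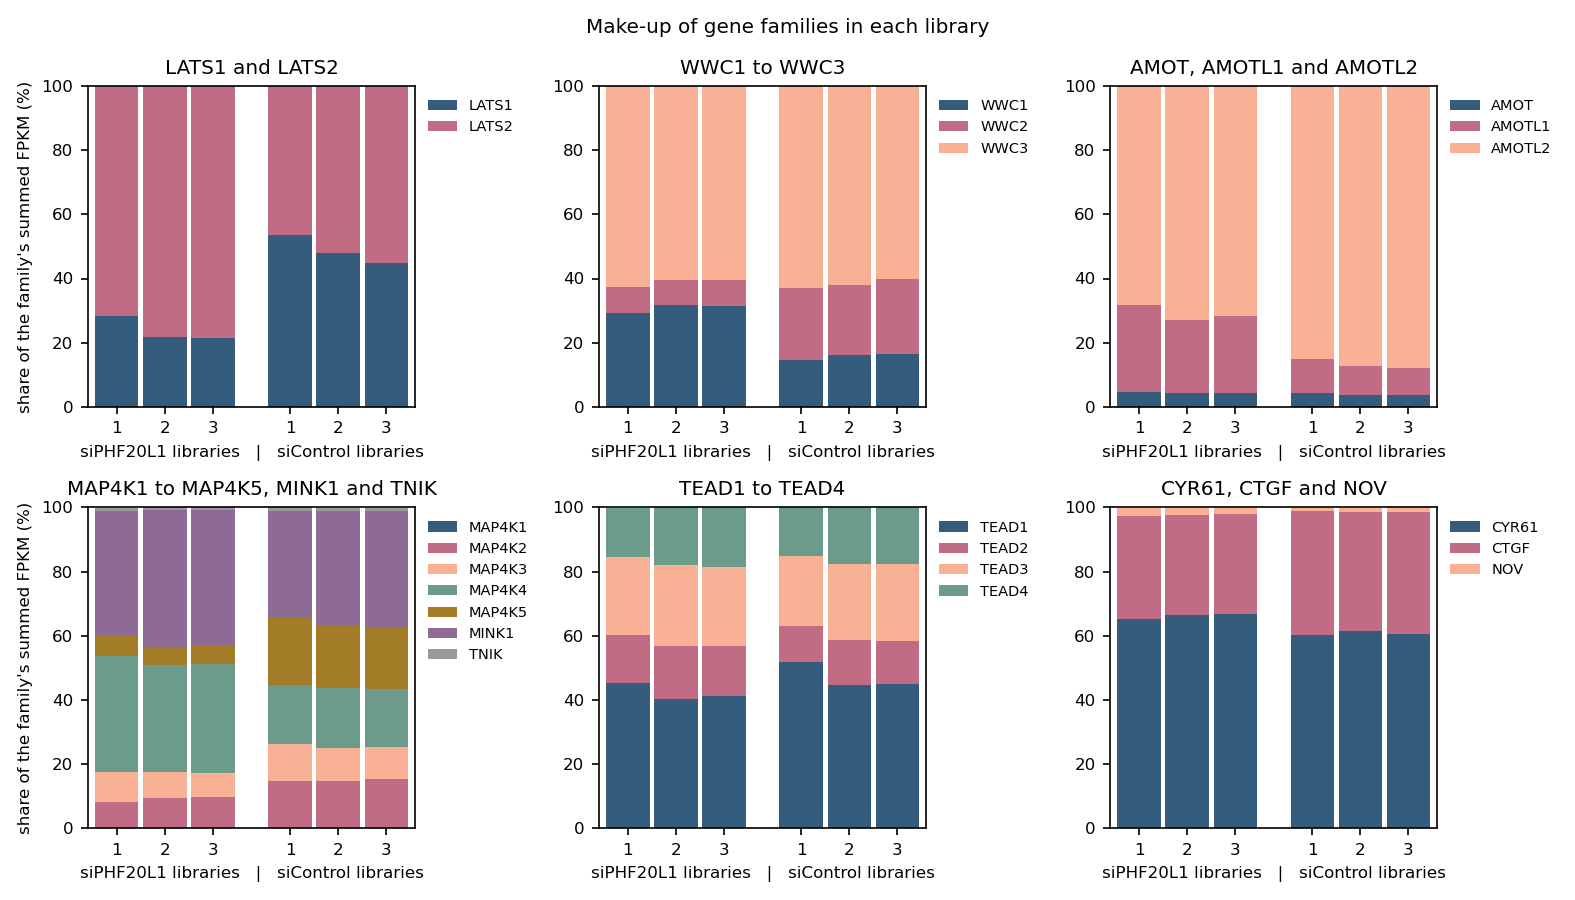
Share of each gene in the summed FPKM of its family, in percent, as stacked bars for the 3 siPHF20L1 libraries (left) and the 3 siControl libraries (right), numbered as in the labels. LATS1 takes 21.5% to 28.4% of the LATS sum in siPHF20L1 and 44.8% to 53.5% in siControl libraries, while the TEAD bars differ far less between the groups.

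STRIPAK is a phosphatase complex that holds MST kinases inactive. Its 17 genes gave 3 that rose and 7 that fell, a share of 58.8% that is close to the 58.6% of all genes tested (34% higher and 24.7% lower), with a median log2 difference of -0.06. The catalytic subunit gene PPP2CA fell to 60.8 ± 0.326 FPKM in siPHF20L1 libraries, against 109 ± 2.25 FPKM in siControl libraries (log2 difference -0.83, limma, adjusted p = 3.24e-06). The kinase gene STK26 fell to 1.32 ± 0.182 FPKM in siPHF20L1 libraries, against 6.35 ± 0.587 FPKM in siControl libraries (-1.67, limma, adjusted p = 2.53e-06), while its paralog STK25 rose to 36.7 ± 2.96 FPKM in siPHF20L1 libraries, against 25.0 ± 2.06 FPKM in siControl libraries (0.54, adjusted p = 0.000599). MOB4 fell by 0.69 on the log2 scale. STRN and SLMAP rose by log2 differences of 0.39 and 0.28 and passed in 12 and 13 of 14 alternatives, STRN not without siControl replicate 2 (limma, adjusted p = 0.0502).

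AP-1 factors occupy many enhancers together with TEAD factors. Of the 5 tested, 3 fell, 1 rose and 1 did not pass, with a median log2 difference of -0.45, while 24.7% of all genes tested fell and 34% rose. FOSL1, the most abundant, stood at 515 ± 43.3 FPKM in siPHF20L1 and 756 ± 35.7 FPKM in siControl libraries (log2 difference -0.55, limma, adjusted p = 0.000341). JUNB stood at 22 ± 2.91 FPKM in siPHF20L1 and 38.7 ± 3.85 FPKM in siControl libraries (-0.80, limma, adjusted p = 0.000294), and JUN at 61.5 ± 8.30 FPKM in siPHF20L1 and 84 ± 11.0 FPKM in siControl libraries (-0.45, adjusted p = 0.0119). FOSL2 rose by a log2 difference of 0.17 and passed in 7 of 14 alternatives, losing the call without siPHF20L1 replicate 2 or 3 or siControl replicate 2 or 3, while the block added JUND for 2 higher in all.

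By distance between centred log2(FPKM + 1) values over the 6 libraries, the tested genes nearest to YAP1 were ATP2C1, SPCS1 and MFF, at distances of 0.0249, 0.043 and 0.0441. None of these passed the threshold. Nearest to ANKRD1 were C10orf10, ANXA2 and ZMIZ1, at 0.0503, 0.0598 and 0.0632, and all of them fell. ANXA2 stood at 572 ± 29.3 FPKM in siPHF20L1 and 941 ± 7.89 FPKM in siControl libraries (log2 difference -0.72, limma, adjusted p = 2.52e-05). This distance takes in the difference between the groups as well as the spread within them.

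In GENCODE release 29 the exons of 4 of the 10 genes, YAP1, WWTR1, LATS1 and CTGF, overlap an antisense gene on the opposite strand, and AMOTL2 overlaps a processed pseudogene on its own strand. The library kit keeps strand, but whether the counting used it was not given in the sources used here. The values of YAP1, WWTR1, LATS1 and CTGF are uncertain to that extent. Strand would not separate AMOTL2 from the pseudogene, so its value is uncertain under either setting.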

How the data were processed

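Per the file headers, the authors deposited FPKM, 1 value per Entrez gene and library, to 2 decimals. Per the submitters' processing notes, the tools were Bowtie 0.12.2, TopHat2 2.1.1 and HTSeq 0.6.0 on GRCh37; for their roles, the annotation and the strand setting, nothing was given in the sources used here. The filter asked for 1 FPKM or more in 3 or more libraries and kept 11560 genes. Values were compared as log2(FPKM + 1) with limma 3.58.1 (R 4.3.3) with an intensity trend and no block, two-sided, with Benjamini-Hochberg adjustment over all genes tested and a threshold of 0.05. Within-library ratios and sums used exact permutation tests.

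Depth was estimated from the step of FPKM times length in transcripts under 1500 bases and values under 0.6 FPKM, searched between 5000000 and 40000000 fragments. It limits the precision of low values most. Same-numbered libraries deviated together (correlations of 0.734, 0.436 and 0.419 for the numbers 1, 2 and 3) and were also fitted as pairs, with the number as a block. siPHF20L1 replicate 2 with siControl replicate 3 gave 0.49, so this check does not separate the numbers 2 and 3. Alternatives were 2 pseudocount and filter settings, 3 scalings, the block, 2 groupings of libraries and 6 fits without 1 library.

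The genes and lists were chosen with earlier results of these data known. From each list the text gives, besides the 10 genes, up to 3 genes past the threshold with the largest difference in each direction. NF2 and JUND were added after their values were seen. VGLL1, on the list of TEAD partners, was not found under that symbol among the genes listed, so it was not analysed here.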

Additional observations from a re-analysis of the deposited data

How the results depend on the processing

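Of 140 comparisons of the 10 genes with an alternative, 125 kept direction and side of the threshold, 13 passed where the fit to all libraries did not, 1 (CTGF with the libraries numbered 2 and 3 averaged) did not pass where it had, and 1, TEAD1 without siControl replicate 1, turned its sign to 0.06, in a range of -0.13 to 0.06 with 1 library left out. The count of higher genes among the 10, 1 in the fit to all libraries, was 2 with equal sums, 2 with quantile normalization, 4 with the replicate block, 3 in the libraries numbered 2 and 3 alone, and 1 to 3 with 1 library left out, where 3 was reached without siPHF20L1 replicate 1. Among all 11560 genes tested, 3926 were higher in the fit to all libraries, 3983 with equal sums and 3371 with quantile normalization. That count was 4946 with the block, 4651 in the libraries numbered 2 and 3 alone and 3952 without siPHF20L1 replicate 1.

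With the replicate block, the TEAD partners had 5 higher and 1 lower, the target signature 10 higher, the CCN family 2 higher and AP-1 factors 2 higher. In the libraries numbered 2 and 3 alone, the TEAD partners had 1 lower, the signature 10 higher and the CCN family 2 higher. Quantile normalization gave 1 lower TEAD partner, 2 higher CCN genes and 0 higher AP-1 factors, median-ratio size factors 1 lower TEAD partner and 0 higher AP-1 factors, equal sums 2 higher CCN genes, and no filter 2 higher AP-1 factors. With the libraries numbered 2 and 3 averaged, 5 upstream regulators, 0 CCN genes and no more than 1 STRIPAK gene (higher) passed in the directions that had 8, 2 and 3, and 0 AP-1 factors were higher. Leaving out 1 library gave 5 to 9 lower upstream regulators, 1 to 2 higher and 1 to 2 lower CCN genes, and 0 to 1 higher AP-1 factors. The 4 ratios kept their direction in every alternative, with -0.33 to -0.05 for TEAD1 to TEAD4 when 1 library was left out. The calls over all genes moved too. Of 11560 genes, 4946 were higher and 3846 lower with the block, and 4651 and 3585 in the libraries numbered 2 and 3 alone. The counts were 3371 and 3478 with quantile normalization, 3504 and 3307 with median-ratio size factors, and 3983 and 2618 with equal sums. Averaging gave 2949 and 1941, and no filter 4191 and 2788 of 16664 genes. Leaving out 1 library gave 3411 to 3973 higher and 2324 to 2988 lower. The cause of the shifts was not tested. The depth estimate limits the low genes most, such as LATS1, whose fragments were fewest among the genes with matched transcripts.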
